A study of Mus musculus with 6 samples.

Results

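The T cell receptor gene segments are the variable (V), diversity (D), joining (J) and constant (C) pieces of the alpha, beta, gamma and delta receptor loci. The members described here were chosen by name and by measured values: every row of the count table with a mouse segment symbol and a sum of at least 10 counts over the 6 libraries. The rule took 174 of the 29393 genes in the table. Of 262 segments in the annotation with such a symbol, 220 had a row, 46 of these fell under the minimum and 42 had no row. Just inside the minimum, Trbv21, Trav15n-2 and Traj59 had 10 counts each, and just outside it Traj28, Traj43, Trav6-6, Trav22 and Trbv4 had 9 each.

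The libraries came from cDNT, mouse T cells that carry neither CD4 nor CD8. By the paper's conversion method, cDNT were raised in culture from CD4+CD25- T cells of adult CD45.1 C57BL/6 spleen and lymph nodes. The paper also used CD45.2 cDNT in an assay with Th17 cells, and which donors gave the sequenced cells is not stated. The starting cells were cocultured with mature dendritic cells of C57BL/6 mice plus IL-2, and the product was sorted. Anti-CD3 and anti-CD28 are described together with the IL-10 treatment, and whether the libraries W/O IL-10 also had them is not stated. The question of the experiment was how IL-10 changes their transcriptome: 3 libraries were made after 24 h with IL-10 at 50 ng/ml (W/ IL-10) and 3 after 24 h without it (W/O IL-10). No source states whether the 3 libraries of a group came from separate cultures or animals, so p-values measure the spread between these libraries, which may be technical.

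A T cell builds its receptor by joining 1 V segment to 1 J segment, with a D segment between them in the beta and delta chains, and by splicing the joined exon to a constant gene. Alpha pairs with beta and gamma with delta. The delta locus lies inside the alpha locus, so that some V segments, with dv in their symbol, can serve in either chain. Alpha-beta cells may also rearrange and transcribe gamma genes, and RNA can start at germline segments that were never joined. Counts per segment from bulk RNA therefore describe RNA over that segment and not receptors. They do not pair chains or count clones, and fewer cells with a segment cannot be told apart from less RNA per cell.

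The members made up 75 Trav, 41 Traj and the constant gene Trac of the alpha locus, and 22 Trbv, 2 Trbd, 13 Trbj and 2 Trbc genes of the beta locus. They also held 7 V and 4 C genes of the gamma locus and 4 Trdv, 2 Trdj and Trdc of the delta locus. In GRCm38, the annotated alpha segments span chr14:52427928-54224206, the beta segments chr6:40891229-41558452 and the gamma segments chr13:19178024-19352756. By biotype, 12 members were pseudogenes (6 Trav, 4 Traj, 1 Trbj and 1 Trbv).

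The J segments differ in whether they hold the conserved J motif, so the 4 Trbj segments with the highest mean CPM are shown with Trbj1-7, which lies beside them. Sequences are from the GENCODE M21 transcripts (GRCm38, plus strand), 5′ to 3′. Capitals mark the letters TTNGGNNNNGGN, a pattern that fits codons for phenylalanine and the glycines of the conserved J motif. It was searched on the coding strand alone and in any reading frame, so a match need not code for the motif. The segments lie at chr6:41534323-41534376 (Trbj1-3), chr6:41534811-41534861 (Trbj1-4), chr6:41535084-41535133 (Trbj1-5), chr6:41535554-41535606 (Trbj1-6) and chr6:41535642-41535687 (Trbj1-7).
Trbj1-3: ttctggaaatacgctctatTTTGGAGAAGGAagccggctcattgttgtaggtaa
Trbj1-4: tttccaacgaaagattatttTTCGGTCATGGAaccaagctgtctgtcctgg
Trbj1-5: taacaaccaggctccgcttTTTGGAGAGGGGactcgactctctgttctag
Trbj1-6: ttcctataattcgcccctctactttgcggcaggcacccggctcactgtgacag
Trbj1-7: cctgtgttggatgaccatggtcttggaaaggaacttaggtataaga
These letters stood in 10 of 12 Trbj members that are not pseudogenes, in 31 of 37 such Traj members and in both Trdj members, and in 0 of the 5 J pseudogenes among the members. Trbj1-6 and Trbj1-7 lacked them. Trbj1-7 still had 57 to 93 counts per library. Its level per length of 73.2 CPM per kilobase was the median of the 13 Trbj members, below Trbj1-5 (131) and Trbj1-6 (99.9) among others.

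The receptor loci held a small and even part of each library. Library totals ran from 21619420 to 23967088 counts, and members took 0.161, 0.152 and 0.154% of them W/O IL-10 and 0.168, 0.170 and 0.171% W/ IL-10. All 3 libraries W/ IL-10 lay above those W/O IL-10 in this share. Constant genes gave 68.6 to 75.3% of member counts. Beta genes gave the largest share of member counts in every library (48.3 to 53.8%) and delta genes the smallest (5.16 to 6.12%). Alpha (21.6 to 23.6%) and gamma (18.9 to 23.3%) lay between them, with gamma above alpha in replicates 2 and 3 W/O IL-10 and below it in the other 4 libraries.

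The alpha and beta constant genes, which code for the membrane-anchored ends of both chains, had the highest levels among members. Trac reached 250, 234 and 267 CPM W/O IL-10 and 260, 295 and 304 CPM W/ IL-10, and the groups overlapped. CPM here are counts per 1e+06 counts of the library, scaled with TMM factors. Trbc1 stood at 212, 215 and 237 CPM against 243, 256 and 252 CPM, and Trbc2 at 359, 304 and 262 CPM against 326, 361 and 365 CPM. Trbc1 separated the groups (not with unscaled library totals) and Trbc2 did not, yet neither difference passed the adjusted test (Trbc1 log2 fold change 0.18 ± 0.08 SE, edgeR adjusted p = 0.313, Trbc2 0.19 ± 0.12 SE, edgeR adjusted p = 0.515). Per kilobase, Trbc2 (476 CPM) was above Trbc1 (315 CPM) and Trac (287 CPM). Trbc1 and Trbc2 are 87.0% identical over their aligned letters, and 41.1% of the 50-base stretches of Trbc1 also occur in another gene, so reads may be split between them.

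The share of Trbc counts assigned to Trbc1 varied more among the libraries W/O IL-10 than between groups. It was 37.1, 41.4 and 47.5% W/O IL-10 and 42.7, 41.6 and 40.9% W/ IL-10. The means were 42.0 ± 5.2% and 41.7 ± 0.938% (SD, n = 3 each). Replicates 1 and 3 W/O IL-10 formed the 2 ends of the range.

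**Figure D1:**
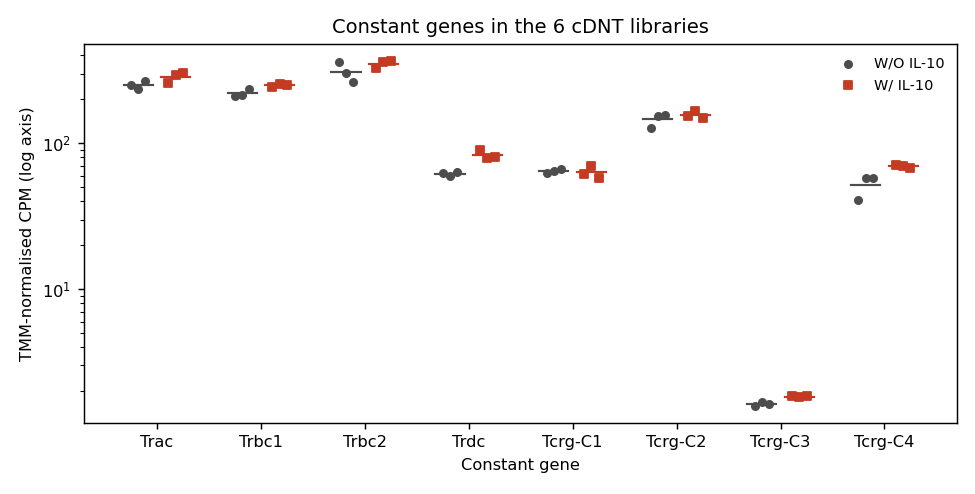
TMM-normalised CPM (log axis) of the 8 constant genes in each library, W/O IL-10 as grey circles and W/ IL-10 as red squares, with a line at each group mean. On this scale Trdc, Tcrg-C4, Trbc1 and Tcrg-C3 separate the groups (Trbc1 not with unscaled totals), while Trac, Trbc2, Tcrg-C1 and Tcrg-C2 overlap.

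Beta V segments code for most of the beta chain's variable domain, and 22 of them were members. The last 60 bases of the leading segments show how they end, where a V segment meets D and J. Capitals mark TGTGCN, which holds the codon of the conserved cysteine that opens the third complementarity-determining region.
Trbv12-2: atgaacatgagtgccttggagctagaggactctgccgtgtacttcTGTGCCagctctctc
Trbv16: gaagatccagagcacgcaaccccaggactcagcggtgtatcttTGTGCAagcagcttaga
Trbv12-1: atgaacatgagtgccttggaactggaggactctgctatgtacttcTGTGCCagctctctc
Trbv3: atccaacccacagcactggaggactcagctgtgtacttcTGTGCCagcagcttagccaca
The letters TGTGCN or TGCGCN lay within the last 30 bases of 19 of 22 Trbv and 66 of 75 Trav members on the coding strand. Trbv12-1 and Trbv12-2 are 88.3% identical over the aligned letters, but at most 1.19% of the 50-base stretches of either occur in another gene.

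Trbv12-2 led in all 6 libraries. It took 15.1, 17.3 and 16.5% of Trbv counts W/O IL-10 and 17.6, 17.3 and 17.9% W/ IL-10. Trbv16 and Trbv12-1 came next per kilobase (52.4 and 49.9 CPM, against 93.1 CPM for Trbv12-2), a gap from the first that is larger than the gap between them. The top 3 Trbv segments held 34.1 to 37.3% of Trbv counts and the top 6 held 53.9 to 57.1%. Levels per kilobase ran from 0.191 to 93.1 CPM with a median of 24.1 CPM over the 22 segments.

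None of the 20 Trbv segments tested passed an adjusted p-value of 0.05 by edgeR, and 2 had an unadjusted p under 0.05. Trbv3 was one of these, with 330, 328 and 381 counts W/O IL-10 and 598, 365 and 392 W/ IL-10. The log2 fold change of Trbv3 was 0.52 ± 0.22 (SE) with an edgeR adjusted p of 0.307, and 0.34 with GC content and length corrected for. Replicate 1 W/ IL-10 alone stood far above the rest. Without it the log2 fold change was 0.21, and the other 2 libraries of that group lay close to the highest of the libraries W/O IL-10. Trbv12-2 (log2 fold change 0.26), Trbv12-1 (0.07), Trbv13-1 (0.09), Trbv13-2 (-0.09) and Trbv16 (0.04) had adjusted p-values between 0.368 and 0.913 by edgeR. Trbv30, among the segments lowest in counts, separated the groups (18, 20 and 21 counts against 13, 16 and 14) without passing the test (edgeR adjusted p = 0.687).

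Replicate 1 W/O IL-10 differed most in Trbv use. Between it and any other library, 8.77 to 11.8% of Trbv counts would have to move to another segment to make the 2 alike, against 3.50 to 7.74% for the 10 pairs without it. Trbv13-3 took 7.49% of Trbv counts there and 4.03 to 5.22% in the other 5 libraries. Over the 20 segments with enough counts, the spread of Trbv counts among libraries W/O IL-10 was 6.35 times that of sampling alone (chi-square over degrees of freedom), against 2.25 times W/ IL-10. Over all 6 libraries it was 4.94 times, and without replicate 1 W/O IL-10 it was 2.38 times. Sampling here means counting error only, with reads taken as independent molecules, so these ratios are a description and no test.

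**Figure D2:**
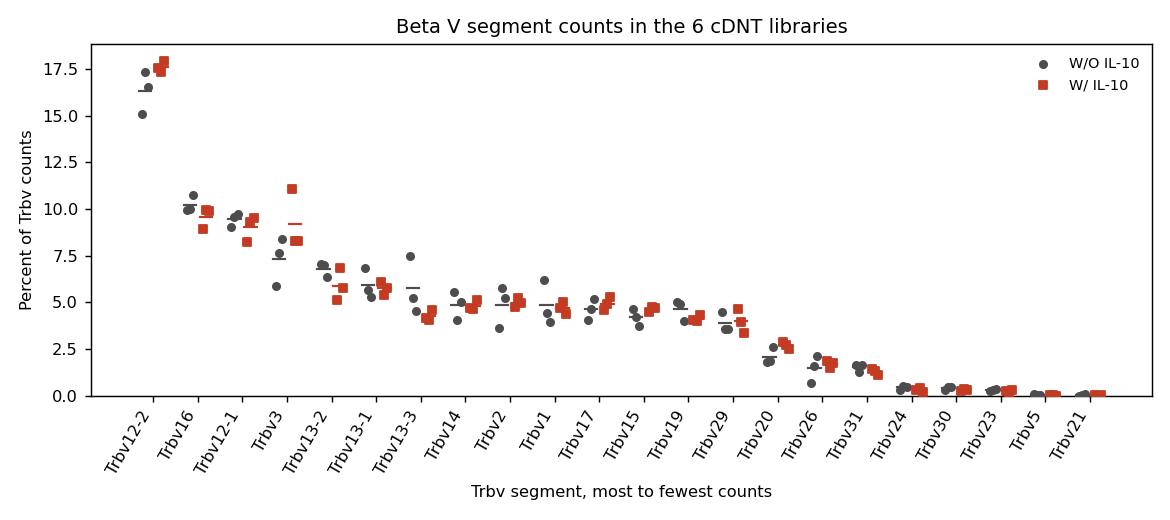
Percent of Trbv counts for each of the 22 Trbv members, by library, with a line at each group mean. Trbv12-2 lies between 15.1 and 17.9% in all libraries, and single libraries stand out in Trbv3 and Trbv13-3.

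The 2 Trbj clusters, which lie before Trbc1 and Trbc2, were counted unequally. Among members, the Trbj2 cluster held only Trbj2-1 to Trbj2-4, Trbj2-7 and the pseudogene Trbj2-6, so the shares leave out its other segments. Trbj1 segments took 72.2, 78.5 and 79.3% of Trbj counts W/O IL-10 and 81.2, 80.8 and 77.4% W/ IL-10. The D segments leaned the same way, with 92.7 to 98.6% of Trbd counts on Trbd1. The sequences of the D segments are short: Trbd1 has 12 bases and Trbd2 has 14.
Trbd1: gggacagggggc
Trbd2: gggactgggggggc
How reads that cross from such a short segment into its neighbours were counted is not stated.

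With TMM scaling the Trbj sum was higher in all 3 libraries W/ IL-10, but not with other scalings. Summed over 13 members it reached 42.5, 34.0 and 36.5 CPM W/O IL-10 and 54.9, 43.4 and 46.8 CPM W/ IL-10, a difference of 0.36 on the log2 scale between means. With unscaled library totals replicate 2 W/ IL-10 (42.7 CPM) fell below replicate 1 W/O IL-10 (43.4 CPM), and with upper-quartile factors likewise (43.1 against 43.4 CPM), a check chosen after seeing the data. Libraries numbered 1 were the highest in each group. Trbj1-4 had 100, 89 and 107 counts against 154, 132 and 140 (log2 fold change 0.65 ± 0.18 SE, edgeR adjusted p = 0.113). Trbj1-6 had 108, 94 and 100 counts against 121, 141 and 160 (0.60 ± 0.16 SE, edgeR adjusted p = 0.107). Both separated the groups and neither passed, and the same held for Trbj1-3 (0.49 ± 0.22 SE, edgeR adjusted p = 0.346). Trbj1-5, with the most counts, overlapped (0.38 ± 0.23 SE, edgeR adjusted p = 0.493). With GC content and length corrected for, the log2 fold changes shrank to 0.34 for Trbj1-4, 0.14 for Trbj1-3 and 0.21 for Trbj1-5, while Trbj1-6 stood at 0.51 (edgeR adjusted p = 0.196 to 0.776). Without replicate 1 W/ IL-10, Trbj1-3 was at 0.22 and Trbj1-5 at 0.21, and without replicate 2 W/O IL-10 Trbj1-5 was at 0.18.

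Alpha V segments are more numerous and had fewer counts each. The 75 Trav members summed to 87.8, 68.8 and 77.0 CPM W/O IL-10 and 107, 84.1 and 88.5 CPM W/ IL-10, so the groups overlapped. Their levels per kilobase ranged from 0.165 to 14.1 CPM with a median of 2.31 CPM. Part of the mouse alpha locus is duplicated and its copies carry d or n in their symbols: unlettered segments took 78.5 to 82.9% of Trav counts, d copies 6.51 to 8.57% and n copies 9.35 to 15.0%. In 31 of the 75 Trav members the larger part of the 50-base stretches occurs in another gene, so the split among copies is uncertain.

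Trav15-1-dv6-1, Trav12-2, Trav16, Trav13-4-dv7, Trav13-1 and Trav16n had the highest mean CPM, and together held 27.5 to 33.8% of Trav counts. Trav12-2 overlapped between the groups, with 130, 106 and 125 counts W/O IL-10 and 136, 113 and 115 W/ IL-10. Trav16 had 89, 80 and 94 counts against 129, 126 and 93 and, once scaled, lay higher in all 3 libraries W/ IL-10, by a narrow margin (4.08 against 4.05 CPM for the nearest pair) that unscaled totals did not keep. The difference of 0.53 ± 0.21 (SE) on the log2 scale had an edgeR adjusted p of 0.273. Trav13-1, Trav13-4-dv7 and Trav16n overlapped between the groups, with log2 fold changes of 0.45, 0.41 and -0.03 and edgeR adjusted p-values of 0.563, 0.515 and 0.977. Without replicate 1 W/ IL-10, Trav13-1 was at 0.06.

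Evenness was measured as the effective number of segments, the number of equally used segments that would give the same Shannon entropy. For Trav it was 48.4, 49.8 and 47.9 W/O IL-10 and 45.8, 44.2 and 46.5 W/ IL-10, and for Trbv 15.04, 14.94 and 15.20 against 14.83, 14.85 and 14.69. In both classes every library W/ IL-10 lay below every library W/O IL-10. The mean gap was 3.23 segments for Trav, past the SDs of 0.965 and 1.16 (n = 3 each), and 0.27 segments for Trbv, with SDs of 0.132 and 0.0907. With the inverse Simpson index, which gives common segments more weight, Trav still separated the groups but Trbv did not. By that index Trbv stood at 13.03, 12.34 and 12.58 W/O IL-10 and 12.23, 12.36 and 12.10 W/ IL-10. An exact permutation test of 3 against 3 libraries cannot go below p = 0.1, so no such single value could pass 0.05. For Trbj the effective number was 10.9, 10.5 and 9.67 against 9.87, 10.1 and 9.97, and the groups overlapped.

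Alpha J levels were higher near the constant gene. The 7 Traj members within 10 kb of Trac (Traj1 to Traj7) took 36.0 to 61.7% of Traj counts, and their median level per kilobase was 14.2 CPM against 3.36 CPM for the 34 members farther away. Level per kilobase and distance to Trac had a Spearman correlation of -0.84 over the 41 members, which share libraries and lie in 1 locus. Traj1, a pseudogene and the nearest at 1.68 kb, had 24, 42 and 32 counts W/O IL-10 and 43, 46 and 45 W/ IL-10. Its level of 58.6 CPM per kilobase was the highest of the class, although its length of 29 bases makes that scale coarse.

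The sequences of Traj1 and Traj2 show the difference between the pseudogene nearest to Trac and the next segment, with the letters TTNGGNNNNGGN in capitals.
Traj1: gtgtgcagatagctgctccatctttcctg
Traj2: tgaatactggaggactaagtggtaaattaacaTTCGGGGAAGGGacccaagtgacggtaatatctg
Traj2 had 16, 39 and 20 counts against 29, 29 and 34, Traj3 27, 26 and 31 against 25, 21 and 37, and Traj4 9, 24 and 13 against 27, 14 and 31. These 3 overlapped between the groups, and of the 7 Traj segments tested none passed (Traj1 log2 fold change 0.58 ± 0.28 SE, edgeR adjusted p = 0.392). The Traj sum was 10.5, 15.5 and 9.22 CPM W/O IL-10 and 25.4, 10.2 and 15.1 CPM W/ IL-10, with replicate 1 W/ IL-10 above all others. The effective number of Traj segments spread from 18.6 to 32.3 W/ IL-10 alone, with 230 to 522 counts behind each value in that group.

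**Figure D3:**
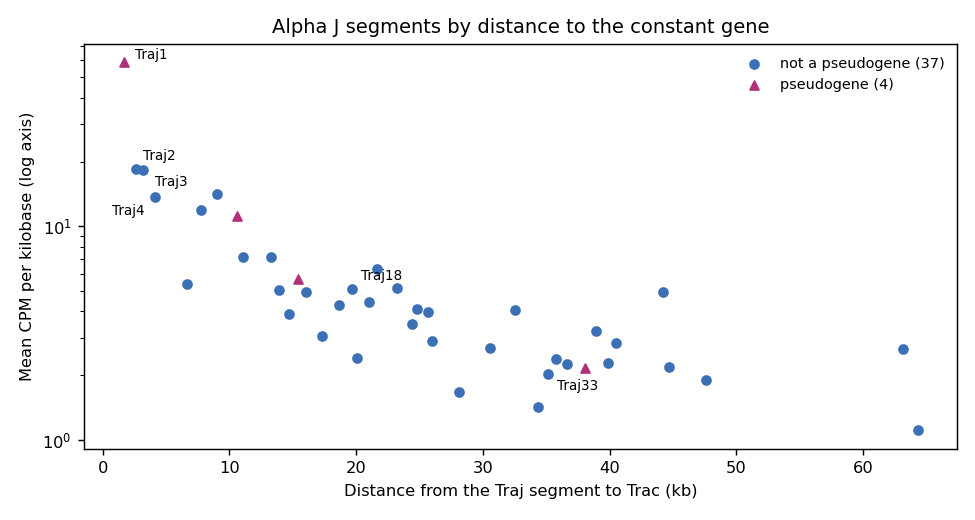
Mean CPM per kilobase (log axis) of the 41 Traj members against their distance to Trac in kilobases, with pseudogenes as triangles. Levels fall from 58.6 CPM per kilobase at Traj1 to under 10 beyond the first 11 kb.

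Of the segments of known invariant receptors, those other than Trav1 had few counts. Traj18, the J segment of invariant NKT cells, had 11, 4 and 3 counts W/O IL-10 and 19, 1 and 7 W/ IL-10, and its V partners Trav11 and Trav11d had 3 counts each over all 6 libraries. Traj33, the J segment of MAIT cells, had 1, 1 and 0 counts against 9, 2 and 2. A count of 0 allows up to 0.131 CPM in replicate 3 W/O IL-10, for counting error alone. By level per kilobase, Traj18 ranked 14 and Traj33 ranked 37 among the 41 Traj members, so the Traj18 count is not low for its class. Trav1, the MAIT V segment, had 76 counts in replicate 1 W/O IL-10 and 15 to 24 in the other 5 libraries. Its log2 fold change of -0.92 ± 0.57 (SE) had an edgeR adjusted p of 0.512, and without that library it was 0.02.

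Of the 174 members, 111 had at least 10 counts in at least 3 libraries and were tested. With edgeR's quasi-likelihood test, 1 of the 111 was called at a fold change of at least 1.5 and an adjusted p under 0.05, against 1.45% of the 14916 genes tested. At any fold, 2 of 111 had an adjusted p under 0.05, against 2.19% of all genes. Both counts are near these background shares and are no result about the segments as a group. In 20 of 111 members (18.0%) all libraries W/ IL-10 lay above those W/O IL-10, against 11.3% of all genes, and in 5 (4.50%) all lay below, against 11.2%. With unscaled library totals these were 14 members (12.6%) against 6.95% and 5 members (4.50%) against 16.5%. The median log2 fold change was 0.18 over the members tested and 0.01 over all genes tested. The 63 members not tested had too few counts.

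The 2 members past the adjusted p-value were Trdc, the delta constant gene, and Trav15-1-dv6-1, a V segment that can join in either the alpha or the delta chain. Trdc had 62.3, 59.9 and 63.3 CPM W/O IL-10 and 90.0, 79.3 and 80.8 CPM W/ IL-10. The groups were far apart relative to their spread (61.8 ± 1.75 against 83.4 ± 5.79 CPM, SD, n = 3), with a log2 fold change of 0.43 ± 0.08 (SE, edgeR adjusted p = 0.0282). Trav15-1-dv6-1 had 90, 89 and 99 counts against 166, 167 and 144. Its mean was 3.87 ± 0.338 CPM W/O IL-10 and 7.26 ± 0.888 CPM W/ IL-10 (SD, n = 3 each). The segment rose by 0.91 ± 0.17 on the log2 scale (SE, edgeR adjusted p = 0.0336) and was the 1 member called past the fold limit. Leaving out any 1 library other than replicate 1 W/O IL-10 took the adjusted p of both above 0.05 (0.0628 to 0.130 for Trdc and 0.0632 to 0.141 for Trav15-1-dv6-1), with log2 fold changes of 0.37 to 0.47 and 0.83 to 1.00 over all 6 such fits.

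Trdc lies at chr14:54142851-54148868 on the plus strand. Its last 207 bases overlap Trdv5 on the other strand, and whether the counting used strand is not given. Trdv5 had 21 to 62 counts per library. Trav15-1-dv6-1 lies at chr14:53559632-53560247 on the plus strand, and 8.07% of its 50-base stretches occur in another gene.

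Another family member, Trav15-2-dv6-2, is 82.4% identical to Trav15-1-dv6-1 over the aligned letters. Their last 60 bases are shown because both segments were higher W/ IL-10, with capitals at the 12 positions where they differ.
Trav15-1-dv6-1: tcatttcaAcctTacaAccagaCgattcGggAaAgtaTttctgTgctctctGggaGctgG
Trav15-2-dv6-2: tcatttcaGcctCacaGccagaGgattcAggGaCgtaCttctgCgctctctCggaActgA
Trav15-2-dv6-2 had 48, 33 and 38 counts W/O IL-10 and 58, 67 and 61 W/ IL-10, with no overlap (log2 fold change 0.77 ± 0.23 SE, edgeR adjusted p = 0.158). Over all 7 Trav15 rows of the table, a family chosen after its values were seen, counts were 141, 129 and 141 against 231, 238 and 208. As a share of Trav counts, Trav15-1-dv6-1 went from 4.19, 5.35 and 5.54% to 7.54, 8.82 and 7.13%.

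All 8 Trav members with a dv name were tested. The fitted change was positive in 7. In 4 of 8 all libraries W/ IL-10 lay above (11.3% of all genes tested did). These were Trav15-1-dv6-1, Trav15-2-dv6-2, Trav16d-dv11 and Trav14d-3-dv8, the last on the TMM scale alone. Both Trav15 segments were already described above, and a list by dv name was not among the planned results. The separation count is therefore a description and no test. The 1 called was Trav15-1-dv6-1 (1.45% of all genes tested were called), already described above, so the count of calls adds nothing to it. Trav16d-dv11 had 16, 15 and 15 counts against 37, 18 and 28 (log2 fold change 0.99 ± 0.38 SE, edgeR adjusted p = 0.269). The dv segments took 17.9, 14.6 and 17.3% of Trav counts W/O IL-10 and 20.9, 22.6 and 21.3% W/ IL-10, with means of 16.6 and 21.6%. This share includes Trav15-1-dv6-1, whose own mean share of Trav counts went from 5.03 to 7.83%, and Trav15-2-dv6-2. The dv share is therefore not independent of those segments. Among other alpha V segments that separated the groups, Trav7-5 (22, 21 and 19 counts against 30, 42 and 40) and Trav4-3 (23, 14 and 14 against 26 each) were higher W/ IL-10. Trav3-4 (47, 40 and 30 counts against 16, 24 and 21) and Trav3-1 (14, 10 and 10 against 8, 6 and 6) were lower, and these 4 had edgeR adjusted p-values of 0.132 to 0.560.

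**Figure D4:**
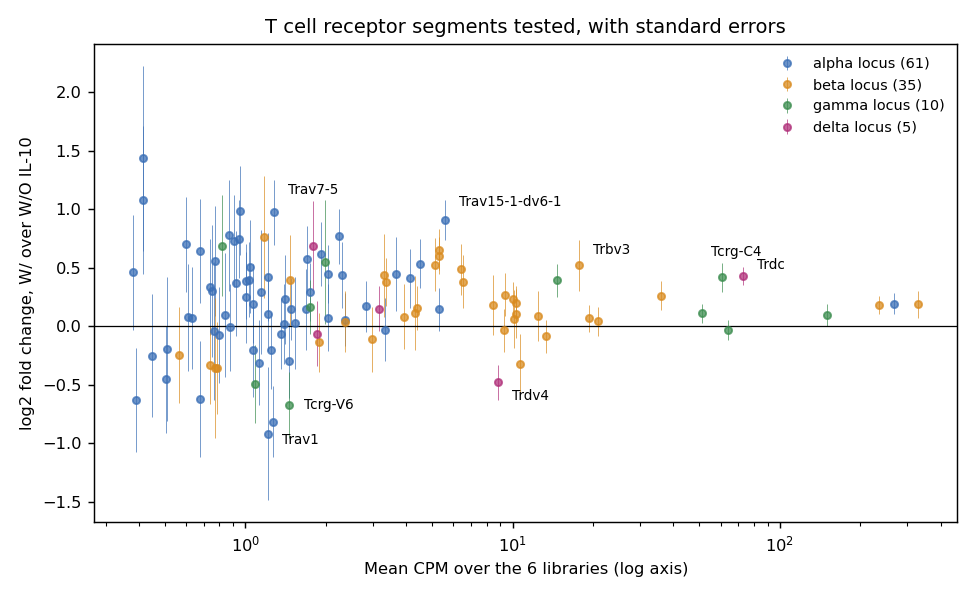
Log2 fold change W/ over W/O IL-10 with its standard error against mean CPM (log axis) for the 111 members tested, coloured by locus. Trav15-1-dv6-1 and Trdc have small errors relative to their change, while segments near 1 CPM scatter widely around 0.

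None of the 3 delta V segments tested passed the adjusted test (edgeR), and 1 had an unadjusted p under 0.05. Trdv4 had 10.1, 10.2 and 10.5 CPM W/O IL-10 and 8.65, 7.19 and 6.27 CPM W/ IL-10, so the groups separated downwards (log2 fold change -0.48 ± 0.15 SE, edgeR adjusted p = 0.165). Trdv4 passed once GC content and length were corrected for, at -0.64 on the log2 scale (edgeR adjusted p = 0.0242). Trdv4 gave 62.3, 72.6 and 71.6% of Trdv counts W/O IL-10 and 55.5, 55.9 and 54.6% W/ IL-10. Trdv1 stood at 3.35, 2.81 and 2.80 CPM against 3.50, 3.15 and 3.29 CPM and overlapped (log2 fold change 0.15 ± 0.19 SE, edgeR adjusted p = 0.771). Trdv5 had 48, 21 and 30 counts against 62, 50 and 32 and overlapped, with a log2 fold change of 0.68 ± 0.38 (SE, edgeR adjusted p = 0.460), opposite in sign to that of Trdv4. It overlaps Trdc on the other strand, and 40.6% of its 50-base stretches are shared with Trdc. The Trdv sum was 16.1, 14.1 and 14.7 CPM against 15.6, 12.9 and 11.5 CPM.

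Gamma constant genes differed among themselves. Tcrg-C2 was the highest per kilobase (165 CPM), then Tcrg-C1 (69.2 CPM) and Tcrg-C4 (61.8 CPM), with Tcrg-C3 at 2.68 CPM. Tcrg-C4 reached 41.0, 57.5 and 57.8 CPM W/O IL-10 and 71.2, 70.3 and 67.2 CPM W/ IL-10, without overlap (log2 fold change 0.42 ± 0.13 SE, edgeR adjusted p = 0.158). Tcrg-C4 passed when genes with few counts were kept in the test (edgeR adjusted p = 0.00325) and under no other alternative (0.0727 to 0.365). Its log2 fold change was 0.26 without replicate 1 W/O IL-10, the lowest library, and 0.29 with GC content and length corrected for. Tcrg-C1 (log2 fold change -0.03 ± 0.08 SE, edgeR adjusted p = 0.905) and Tcrg-C2 (0.09 ± 0.09 SE, edgeR adjusted p = 0.697) overlapped. Tcrg-C1 and Tcrg-C2 are 96.1% identical over the aligned letters, while Tcrg-C4 shares none of its 50-base stretches with another gene.

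The gamma V segment Tcrg-V1 lies 4.1 kb before Tcrg-C4 on the same strand and is known to join within that cluster. It had 298, 265 and 349 counts W/O IL-10 and 332, 355 and 415 W/ IL-10, and after scaling the groups separated (log2 fold change 0.39 ± 0.14 SE, edgeR adjusted p = 0.228, and 0.22 with GC content and length corrected for). Trgv2, which belongs with Tcrg-C2, held 68.4 to 74.6% of gamma V counts and stood at 49.0, 47.3 and 51.0 CPM against 56.5, 51.6 and 50.8 CPM (log2 fold change 0.11 ± 0.08 SE, edgeR adjusted p = 0.568). Tcrg-V6 went the other way, with 46, 43 and 40 counts against 26, 19 and 29 (log2 fold change -0.67 ± 0.28 SE, edgeR adjusted p = 0.305). Summed gamma V levels were 65.9, 63.4 and 73.2 CPM against 78.8, 72.9 and 74.3 CPM, so the groups overlapped.

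**Figure D5:**
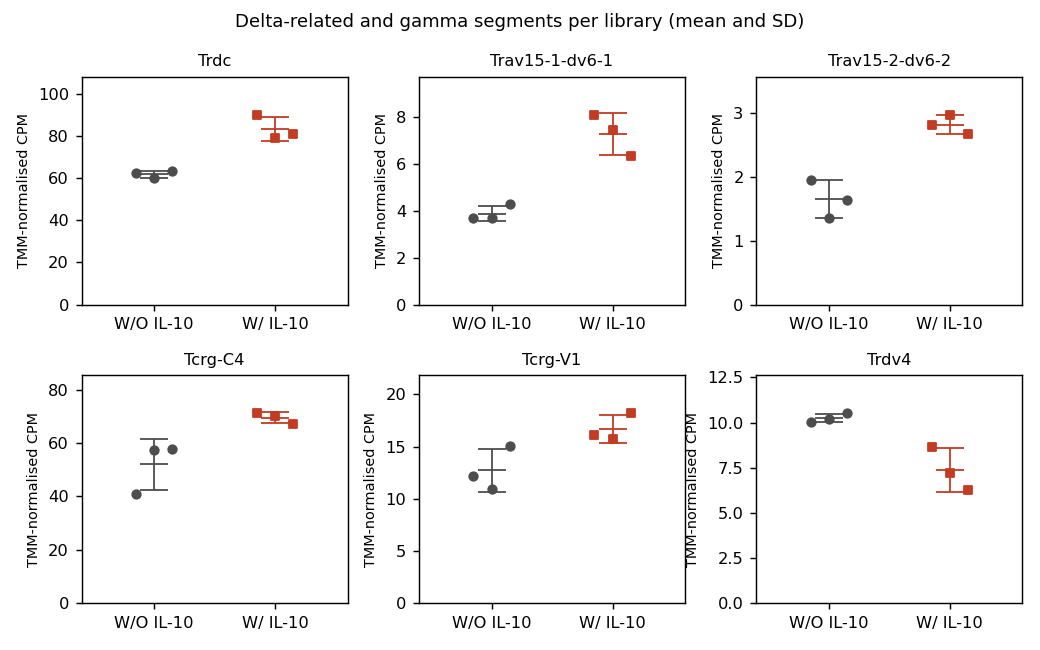
CPM of 6 delta-related and gamma members in each library, with the mean and SD of 3 libraries per group and axes from 0. Trdc, Trav15-1-dv6-1, Trav15-2-dv6-2, Tcrg-C4 and Tcrg-V1 lie higher in all libraries W/ IL-10, and Trdv4 lies lower.

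The genes that carry or build the receptor gave a reference for these levels. The CD3 chains Cd3g, Cd3e, Cd3d and Cd247, which bring the receptor to the surface and signal from it, had log2 fold changes of 0.35, 0.27, 0.24 and 0.15, and 0 of 4 passed (edgeR adjusted p = 0.186 to 0.532; 1 had an unadjusted p under 0.05). On the TMM scale, all libraries W/ IL-10 lay above in Cd3g and Cd247, as in 11.3% of all genes tested, while Cd3e and Cd3d overlapped. For Cd247 the margin was narrow (109 against 108 CPM for the nearest pair). Dntt, Rag2 and Ptcra, which act while receptors are being assembled in the thymus, had 0 to 4 counts per library.

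Markers of other T cell kinds also changed, in both directions, and their part in the result was not tested. Of the gamma-delta markers, Sox13 (12.4 ± 2.43 against 6.12 ± 0.265 CPM, log2 fold change -1.02) and Cd163l1 (19.1 ± 3.46 against 10.6 ± 0.568 CPM, -0.85) both fell (edgeR adjusted p = 0.0213 and 0.0247), while Trdc rose. Their sum was 27.8 to 38.2 CPM W/O IL-10 and 15.9 to 17.4 CPM W/ IL-10. Zbtb16, a factor of innate-like T cells, stood at 24.8 ± 6.49 against 15.1 ± 1.79 CPM (edgeR adjusted p = 0.0974). Klrb1c, the other innate-like marker listed, overlapped at 32.9 ± 5.83 against 27.4 ± 3.61 CPM (edgeR adjusted p = 0.444). The coreceptor genes Cd8a (107 ± 11.7 against 158 ± 16.6 CPM) and Cd8b1 (38.1 ± 6.03 against 60.8 ± 5.15 CPM) rose (edgeR adjusted p = 0.0369 and 0.0306), although the cells were sorted as lacking CD8, and Cd4 stood at 1.39 ± 0.234 against 0.889 ± 0.468 CPM (SD, n = 3 for each).

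Markers of other cells were also counted. The 5 B cell genes summed to 62.3 to 153 CPM W/O IL-10 and 59.4 to 106 CPM W/ IL-10, and 0 of 5 passed the adjusted test (edgeR). The 7 dendritic cell or macrophage genes with a row summed to 32.0 to 33.9 CPM and 51.0 to 62.6 CPM, of which Itgax, which T cells may express too, gave 20.4 and 43.2 CPM and was the 1 that passed (edgeR adjusted p = 0.00383), while Siglech had 1 count in all. The others went both ways without passing: Xcr1 stood at 3.89 against 5.89 CPM, Zbtb46 at 6.70 against 4.94 CPM and Lyz2 at 1.77 against 1.16 CPM (edgeR adjusted p = 0.184 to 0.666). The 3 NK cell genes (Eomes, Ncr1 and Klrb1c) summed to 546 to 574 CPM and 383 to 413 CPM, mostly Eomes. Of the 3, 2 fell (Eomes and Ncr1, edgeR adjusted p = 0.0176 and 0.0460). The paper lists Nkp46, encoded by Ncr1, among cytotoxicity genes of the cDNT themselves that IL-10 lowered. Whether the Eomes and Ncr1 counts came from cDNT or from NK cells was not tested. The part of B cells, dendritic cells, macrophages and NK cells in the segment counts was not tested either.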

How the data were processed

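Per the labels, the authors deposited 1 table of raw whole-number counts per Ensembl gene for 6 bulk RNA libraries. The submitters' processing notes name HISAT2, HTSeq and GRCm38, while the study's methods name TopHat and Cufflinks. Strand use and the treatment of reads that cross several segments are not given in the sources used here. Symbols, positions, lengths and sequences came from GENCODE M21. TMM factors (0.953 to 1.03) and quasi-likelihood tests were computed with edgeR 4.0.16 in R 4.3.3. The fit used the 14916 genes that reached 10 counts in 3 or more libraries, with Benjamini-Hochberg adjustment over all of them. A call needed a fold of at least 1.5 and an adjusted p-value under 0.05. The SE is the log2 fold change over the square root of F. A floor of 3 counts equals 0.125 to 0.139 CPM, for counting error only. Named members were the constant genes, the segments with the highest mean CPM per class, invariant segments, those past the adjusted p-value and up to 5 per direction with the largest changes without overlap. Members and lists were chosen with earlier results of these data known. Fits were tested on simulated data. Alternatives were DESeq2 1.42.0, other factors, filters, GC content and length, a replicate block and leaving out each library.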

Additional observations from a re-analysis of the deposited data

How the results depend on the processing

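DESeq2, upper-quartile factors and a stricter filter left 1 member upregulated, 0 downregulated and 2 past the adjusted p-value. Without a filter 4 were past it (Tcrg-C4 and Trbv3 besides). With GC content and length corrected for, with or without the replicate block, 1 was upregulated and 1 (Trdv4) downregulated. Leaving out each library gave 0 to 1 upregulated, 0 downregulated and 0 to 2 past the adjusted p-value; only 2 libraries remain in an arm, whose spread is pooled with the other. Same-numbered libraries had correlations of 0.0524, -0.0573 and 0.114, against -0.106 to 0.0409 for differently numbered ones. Such weak correlations cannot decide whether the numbers pair the libraries, and no source states a pairing. The replicate block gave 0 upregulated and 1 (Trdc) past the adjusted p-value, with Trav15-1-dv6-1 at an edgeR adjusted p of 0.0636.

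The difference in the effective number of Traj (0.522 segments) was -0.017 after thinning to the smallest total and -3.19 to 3.68 without each library. That in the Trbc1 share (-0.305 points) was -2.74 to 2.44. Of 41 named members with a fit, 32 kept their direction under every alternative run. The other log2 fold changes, without each library, ran from -0.107 to 0.027 (Tcrg-C1), -0.0053 to 0.129 (Tcrg-C2), -0.13 to 0.28 (Traj3), -1.25 to 0.018 (Trav1), -0.24 to 0.23 (Trav16n), -0.011 to 0.136 (Trbv12-1), -0.10 to 0.32 (Trbv13-1), -0.167 to 0.047 (Trbv13-2) and -0.062 to 0.12 (Trbv16). With the GC and length correction, without and with the replicate block, Tcrg-C2 was at -0.027 and -0.024 and Traj3 at -0.38 and -0.40. The cause was not tested. Members with fewer than 10 counts in most libraries were too shallow to test.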
